A study of Mus musculus with 2 samples.

Results

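The 6 genes that respond to Wnt signaling, the Wnt agonist Rspo3 and 3 secreted Wnt antagonists described here were followed through 2 single-cell libraries of mouse embryos at embryonic day 7 (E7). The 10 genes, Axin2, Sp5, Lef1, Nkd1, Notum, Znrf3, Rspo3, Dkk1, Sfrp1 and Sfrp5, were taken by symbol from the 32285 genes counted, and each symbol matched 1 gene. Yap1, which encodes a transcriptional co-activator of the Hippo pathway, was deleted in the epiblast with Sox2-Cre and a floxed allele. The Yap1 cKO library was a pool of 3 Sox2-Cre:Yap flox/flox embryos and the control library a pool of 4 embryos. The controls were Sox2-Cre:Yap flox/+ by the design text and by the single-cell methods, so they carried Cre and 1 floxed allele, although the sample labels call them WT and the general mouse methods describe Cre-negative floxed littermates. Sox2-Cre acts in the epiblast and its derivatives. For Yap1 flox/flox embryos, control and cKO alike, the paper states that extraembryonic tissue is likely heterozygous for Yap1, through deletion of the paternal allele. It does not say so for flox/+ controls, which the single-cell methods name, so the Yap1 dose of extraembryonic tissue may differ between the libraries. Each genotype was 1 library, so no test was made between the genotypes. Brackets after a value hold its 95% interval, which covers counting error only and not differences between embryos or libraries.

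Canonical Wnt ligands bind Frizzled and LRP5/6 receptors, which stabilizes beta-catenin and lets it act with TCF/LEF factors at target genes. In the gastrulating mouse embryo Wnt3 is required for the primitive streak, and the anterior visceral endoderm secretes antagonists that keep the streak posterior. Axin2 is a scaffold of the complex that degrades beta-catenin, Nkd1 binds Dishevelled, Notum removes the lipid from Wnt ligands, and Znrf3 is a ubiquitin ligase that clears Frizzled from the membrane. All 4 act as negative feedback. Sp5 is a zinc finger transcription factor and Lef1 one of the TCF/LEF factors. Rspo3 is a secreted R-spondin that blocks Znrf3 and Rnf43 through Lgr receptors. Dkk1 blocks LRP5/6, and Sfrp1 and Sfrp5 are secreted proteins with a Frizzled-like domain that can bind Wnt ligands.

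Promoter windows are shown for Sp5, Dkk1 and Axin2, because these 3 genes carry the contrasts below: Axin2 was high across epiblast with Fgf8 and mesoderm, Sp5 was high in few embryonic populations, and Dkk1 was highest in the anterior visceral endoderm. The windows run from 250 bases before to 50 after a transcription start in RefSeq (GRCm38.p6) and are printed 5′ to 3′ on the strand of the gene. Capitals mark the letters CTTTG followed by 2 bases that are each A or T, or the reverse complement, the core of the sequence that TCF/LEF factors recognize. The Sp5 window lies at chr2:70474673-70474972 on the plus strand, the Dkk1 window at chr19:30549447-30549746 on the minus strand and the Axin2 window at chr11:108920099-108920398 on the plus strand.
Sp5: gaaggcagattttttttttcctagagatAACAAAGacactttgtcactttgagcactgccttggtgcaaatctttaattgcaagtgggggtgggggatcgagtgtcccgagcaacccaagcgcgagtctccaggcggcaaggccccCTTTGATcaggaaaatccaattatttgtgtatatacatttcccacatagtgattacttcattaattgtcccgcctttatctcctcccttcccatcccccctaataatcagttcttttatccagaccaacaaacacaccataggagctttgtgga
Dkk1: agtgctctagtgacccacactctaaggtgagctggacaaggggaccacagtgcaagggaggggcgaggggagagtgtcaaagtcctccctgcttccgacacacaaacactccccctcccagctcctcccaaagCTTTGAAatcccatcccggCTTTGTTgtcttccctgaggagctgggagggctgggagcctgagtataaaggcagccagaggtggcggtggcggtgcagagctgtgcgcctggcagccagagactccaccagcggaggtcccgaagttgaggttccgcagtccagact
Axin2: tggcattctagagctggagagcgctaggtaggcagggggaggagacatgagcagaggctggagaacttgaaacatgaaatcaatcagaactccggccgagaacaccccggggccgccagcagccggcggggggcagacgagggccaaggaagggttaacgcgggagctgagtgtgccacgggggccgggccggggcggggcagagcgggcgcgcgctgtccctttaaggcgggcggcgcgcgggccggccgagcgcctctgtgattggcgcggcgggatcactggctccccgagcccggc
The Sp5 window held 2 matches, 222 and 104 bases before the start, and the Dkk1 window 2 matches, 117 and 98 bases before it, while the Axin2 window held 0. Of 32851 promoter windows of this length, 16.9% held at least 1 match and 1.94% at least 2. Of the 10 genes 6 were in the promoter table, with 9 windows: 1 of the 4 Lef1 windows held 1 match, and those of Nkd1 and Sfrp5 held 0. Some RefSeq starts lay downstream of the gene start printed below. The Lef1 start with the match lay 45823 bases downstream. That of Nkd1 lay 6279 bases downstream, so the sequence before the printed Nkd1 start was not searched. That of Dkk1 lay 169 bases downstream, so both Dkk1 matches fall within the gene as printed below. A match describes letters only, and no binding was measured.

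Cells with at least 5000 detected genes were used. Of these 791 came from the control library, at a median depth of 75715 unique molecular identifiers (UMIs), and 864 from the mutant, at a median of 80921.5. They shared 0 barcodes. Cells were sorted into populations by thresholds on marker genes, none of them 1 of the 10 genes. Epiblast cells had Pou5f1 without T, Mixl1 or mesoderm genes at their thresholds. They were parted at 40 CPM (UMIs of a gene per 1000000 UMIs) of Fgf8 into Fgf8-low and Fgf8-positive cells. Fgf8 is a ligand of the posterior epiblast and streak. Primitive streak cells had T or Mixl1, nascent mesoderm Mesp1 or Mesp2, and further gates took mesoderm with both Foxf1 and Hand1, blood and endothelial, axial, visceral endoderm (VE), anterior VE and extraembryonic ectoderm cells. The level of a gene in a population is the sum of its UMIs over all cells of the gate, in CPM. Some extraembryonic cells also held Pou5f1, Mesp1 or Foxf1 and were left out as mixed. Cells with the markers of both VE and extraembryonic ectoderm belonged to no gate. Together these were 12 control and 19 Yap1 cKO cells. Yap1 itself stood at 29.2 CPM in epiblast of the control library but at 0.901 CPM in that of the mutant, a Yap1 cKO to control ratio of 0.0308 (0.0196 to 0.0463). It stood at 30.7 and 27.6 CPM in VE and, in the control and then the mutant as in all pairs of values below, at 38.8 and 16.9 CPM in anterior VE. Both labels give female as the sex, yet cells with at least 2 Y-linked UMIs and no Xist were 51.7% of the cells of the control library and 15.5% of the other. Sex and exact stage of the embryos cannot be told apart from the genotype when the libraries are taken whole.

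Free RNA was estimated from VE genes in extraembryonic ectoderm as 1.11% of a control and 0.772% of a Yap1 cKO cell. From VE genes in epiblast the estimate was lower, 0.553% and 0.308%. The higher estimate would give Sp5 0.396 and 0.254 CPM and Dkk1 0.470 and 0.406 CPM in any cell. For Sp5 in the control it is too high, since extraembryonic ectoderm there held 0 UMIs (0 to 0.216 CPM). Levels near or below the higher estimate were read as background, among them the 0.206 CPM of Sp5 (3 UMIs) in control Fgf8-low epiblast.

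Axin2 (ENSMUSG00000000142, chr11:108920349-108950783, plus strand) was highest in the primitive streak of both libraries, at 63.2 CPM (54.1 to 73.5) in the control and 56.4 CPM (49.5 to 63.9) in the Yap1 cKO. In the control its levels then ran from 51.8 CPM in Foxf1/Hand1 mesoderm and 51.6 CPM in nascent mesoderm over 41.0 CPM in blood and endothelial cells and 31.6 CPM in axial cells to 24.0 CPM in Fgf8-positive epiblast. Of these neighbours, only nascent mesoderm and blood differed beyond the counting error of their levels. VE stood at 24.5 and 20.7 CPM, within counting error of the 24.0 and 23.7 CPM of Fgf8-positive epiblast, and extraembryonic ectoderm at 16.4 and 11.2 CPM. The lowest level of either library was that of Fgf8-low epiblast, 3.63 CPM (2.72 to 4.75) in the control and 7.52 CPM (5.88 to 9.49) in the Yap1 cKO.

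Sp5 (ENSMUSG00000075304, chr2:70474923-70477729, plus strand) was high in fewer embryonic gates than Axin2. It reached 231 CPM (208 to 256) in control axial cells and 218 CPM (196 to 241) in those of the Yap1 cKO and 176 and 154 CPM in nascent mesoderm, and the streak held 159 and 61.7 CPM. The anterior VE followed in the control at 47.1 CPM and, at 77.7 CPM, stood above the streak in the Yap1 cKO. Foxf1/Hand1 mesoderm held 31.9 and 41.6 CPM and VE 20.7 and 8.87 CPM. Fgf8-positive epiblast held 16.2 and 8.54 CPM, and Fgf8-low epiblast 0.206 and 0.424 CPM. In extraembryonic ectoderm the control held 0 UMIs and the Yap1 cKO 13, 11 of them in 1 cell.

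Lef1 (ENSMUSG00000027985, chr3:131110471-131224356, plus strand) was an embryonic gene at a more even level. It stood at 110 and 123 CPM in Fgf8-low epiblast and was highest in nascent mesoderm, at 286 CPM (272 to 300) in the control and 276 CPM (264 to 287) in the Yap1 cKO. Foxf1/Hand1 mesoderm followed at 200 and 201 CPM. The anterior VE held 0 and 4 UMIs and extraembryonic ectoderm 4 and 10, so that 96.9% and 93.0% of all Lef1 UMIs lay in the embryonic gates.

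Nkd1 (ENSMUSG00000031661, chr8:88521354-88594884, plus strand) was highest in Foxf1/Hand1 mesoderm, at 129 CPM (119 to 140) in the control and 91.2 CPM (82.2 to 101) in the Yap1 cKO, and next in blood and endothelial cells, at 65.9 and 66.3 CPM. Znrf3 (ENSMUSG00000041961, chr11:5276324-5444847, minus strand) was found at 40.7 to 87.4 CPM in each of the 10 populations of both libraries. Notum (ENSMUSG00000042988, chr11:120653788-120661175, minus strand) had 28 UMIs in all control and 66 in all Yap1 cKO cells, 15 and 11 of them in Foxf1/Hand1 mesoderm. Its ratio in epiblast rests on 1 and 7 UMIs, 5.89 (0.756 to 265), which allows no direction.

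Rspo3 (ENSMUSG00000019880, chr10:29452416-29535867, minus strand) was by far highest in blood and endothelial cells, with 397 CPM (374 to 422) in the control and 267 CPM (250 to 286) in the Yap1 cKO. All 30 control and 34 Yap1 cKO cells of that gate held a UMI of it. Foxf1/Hand1 mesoderm held 123 and 131 CPM, nascent mesoderm 113 and 99.9 CPM, the streak 52.0 and 29.6 CPM, and Fgf8-low epiblast 3.36 and 7.31 CPM.

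The antagonists had their highest level in the anterior VE. Dkk1 (ENSMUSG00000024868, chr19:30545863-30549665, minus strand) stood there at 1529 CPM (1456 to 1604) in the control and 1287 CPM (1236 to 1339) in the Yap1 cKO. That was 95.3 (76.4 to 120) and 81.5 (71.4 to 93.3) times the level of the other VE cells. The size of this contrast depends on the split, which was redrawn after member values had been seen. With the first gates, taking anterior cells by at least 2 markers, Dkk1 stood at 1086 and 1364 CPM in anterior and 99.8 and 18.8 CPM in other VE. Sfrp1 (ENSMUSG00000031548, chr8:23411502-23449632, plus strand) stood at 529 CPM (487 to 574) and 453 CPM (424 to 485) in the anterior VE, where each of the 19 control and 24 Yap1 cKO cells held a UMI of it. Sfrp5 (ENSMUSG00000018822, chr19:42197971-42202252, minus strand) stood at 187 CPM (162 to 214) and 154 CPM (137 to 173) there, and these cells, 2.40% and 2.78% of all, held 79.5% and 71.3% of its UMIs. With the first gates Sfrp5 stood at 166 and 160 CPM in anterior and 7.37 and 4.72 CPM in other VE. Sfrp5 had 0 UMIs in extraembryonic ectoderm and in blood of both libraries. Outside the anterior VE the antagonists parted: Dkk1 was next in Foxf1/Hand1 mesoderm of the control (73.4 CPM) and in axial cells of the Yap1 cKO (137 CPM, most of it in 1 cell), whereas Sfrp1 was next in axial cells (96.1 and 130 CPM) and nearly absent from blood (3 UMIs in each library).

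**Figure D1:**
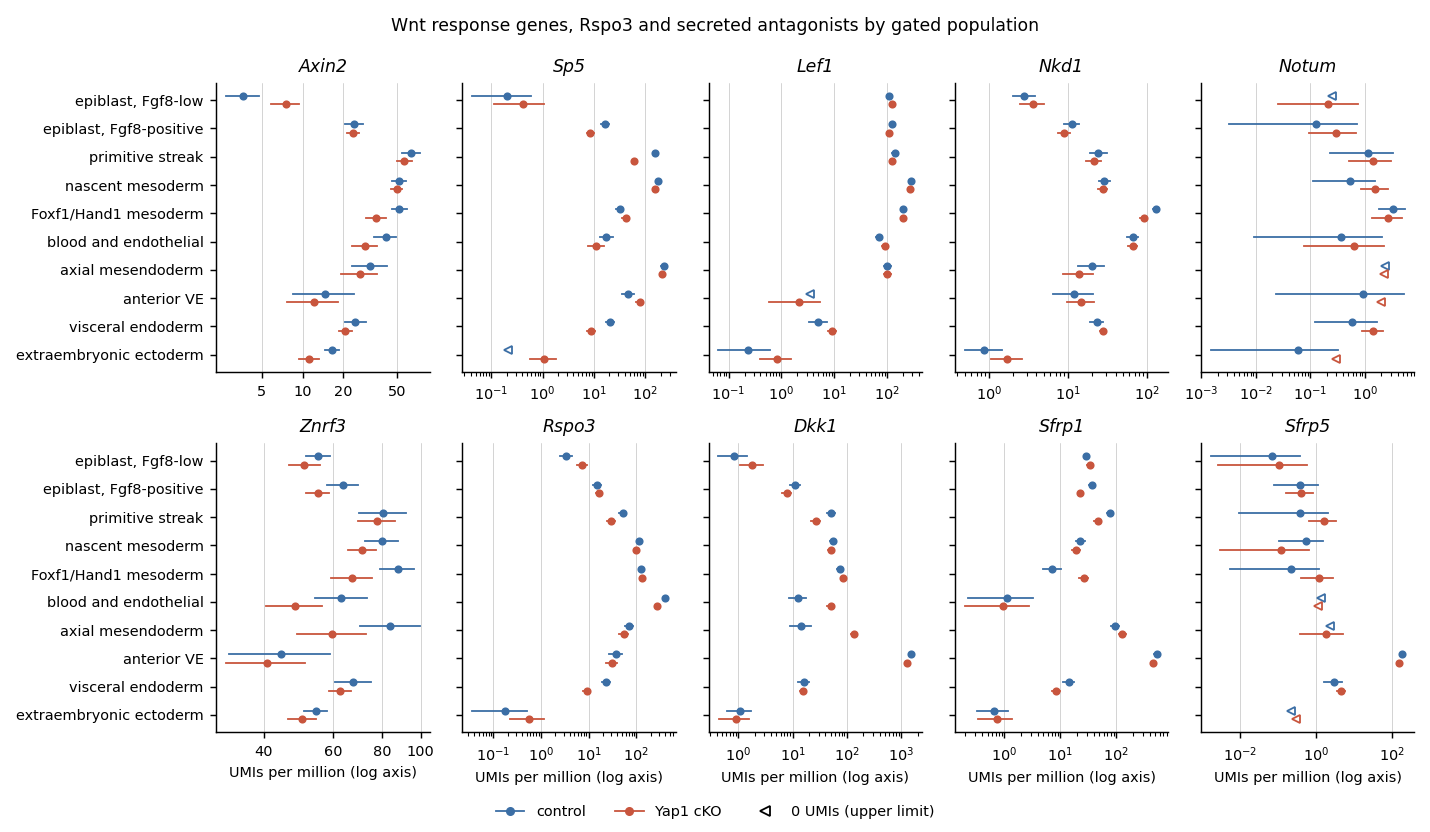
Level of each gene in 10 gated populations, in CPM on a log axis that differs between panels; points are the control (blue) and Yap1 cKO (red) library, bars 95% Poisson intervals, and open triangles the upper limit where 0 UMIs were counted. Axin2 is highest in the primitive streak (63.2 and 56.4 CPM), and Dkk1, Sfrp1 and Sfrp5 are highest in the anterior VE of both libraries.

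Along the order Fgf8-low epiblast, Fgf8-positive epiblast and primitive streak, most of the 10 genes were higher at each step in both libraries. Of the 8 with at least 20 UMIs, 5 (Axin2, Sp5, Nkd1, Rspo3 and Dkk1) were at least 1.5 times as high in Fgf8-positive as in Fgf8-low epiblast of the control and of the Yap1 cKO, where 6.34% and 5.54% of all genes were. From Fgf8-positive epiblast to the streak 6 were, the same 5 and Sfrp1, against 8.47% and 8.37% of all genes, and 0 were lower by that fold at either step, where 6.71% and 6.57% and then 11.4% and 10.6% of all genes were. The step of Axin2 from Fgf8-low to Fgf8-positive epiblast was 6.61-fold (4.85 to 9.15) in the control and 3.15-fold (2.44 to 4.11) in the Yap1 cKO. That of Sp5 was 78.9-fold (26.4 to 388) and 20.2-fold (7.71 to 75.0), with 3 and 4 UMIs in the lower gate. Lef1 and Znrf3 were between 0.899 and 1.41 times as high at every step.

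In epiblast as a whole, Axin2 and Rspo3 were higher in the Yap1 cKO, and the other 6 genes with at least 20 UMIs differed less. Axin2 stood at 10.8 CPM (9.44 to 12.2; 241 UMIs) in the control and 18.0 CPM (16.4 to 19.7; 479 UMIs) in the Yap1 cKO, a ratio of 1.67 (1.43 to 1.96). Rspo3 stood at 7.36 CPM (6.28 to 8.58) and 13.2 CPM (11.9 to 14.7), for a ratio of 1.79 (1.49 to 2.17). These were the 2 of 8 genes with enough UMIs that were at least 1.5 times as high, against 3.94% of 15043 genes, and 0 were lower by that fold, against 6.38%. Sp5 had a ratio of 0.977 (0.767 to 1.24), Lef1 1.01 (0.959 to 1.07), Nkd1 1.23 (0.974 to 1.55), Znrf3 0.921 (0.854 to 0.994), Dkk1 1.29 (0.991 to 1.68) and Sfrp1 0.850 (0.765 to 0.945). Sfrp5, with 4 and 8 UMIs, had a ratio of 1.68 (0.451 to 7.63), which allows no direction. At 2-fold, 0 of the 8 were higher (1.28% of all genes). The median of the 8 log2 ratios was 0.15, and that of all genes -0.05.

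Among the Fgf8-low cells of epiblast both genes were higher in the Yap1 cKO. In the Yap1 cKO, 1 of these cells held 14 Axin2 UMIs. Together the Fgf8-low cells held 53 of the 241 control and 71 of the 479 Yap1 cKO Axin2 UMIs of epiblast. Axin2 had there a ratio of 2.07 (1.43 to 3.01) and Rspo3 one of 2.18 (1.49 to 3.21), and 3 of 7 genes, with Dkk1 at 2.19 (0.985 to 5.02), were past 1.5-fold against 4.07% of all genes, and 0 were lower against 5.52%. Dkk1 rests there on 12 and 17 UMIs, 0.823 and 1.80 CPM, against 0.470 and 0.406 CPM by the higher estimate of free RNA. In Fgf8-positive cells Axin2 stood at 24.0 and 23.7 CPM, a ratio of 0.987 (0.828 to 1.18), and Rspo3 at 14.8 and 16.4 CPM, a ratio of 1.11 (0.891 to 1.39). Here 0 genes were higher by 1.5-fold (4.74% of all genes) and 2 were lower (7.06%), Sp5 at 0.526 (0.412 to 0.673) and Sfrp1 at 0.621 (0.533 to 0.726). The call of Sfrp1 rests on cells with at least 40 CPM of Sox17, a factor of the definitive endoderm: 4 of 98 control and 2 of 166 Yap1 cKO cells held 30.8% and 11.1% of its UMIs, and without them its ratio was 0.770 (0.645 to 0.921). Without the same cells Sp5 had a ratio of 0.461 (0.346 to 0.614) and Dkk1 one of 2.35 (1.39 to 4.21) from 17 and 91 UMIs. The share of Fgf8-positive cells in epiblast was 35.5% (29.9 to 41.5) in the control but 62.2% (56.1 to 68.0) in the mutant. With both gates weighted as in the control, the epiblast ratio of Axin2 was 1.22, that of Rspo3 1.43 and that of Sp5 0.562. The paper reports Fgf8 itself as higher in Yap1 cKO epiblast. Cells of the same Fgf8 gate or level therefore need not be alike between the libraries, here and in the groups below.

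**Figure D2:**
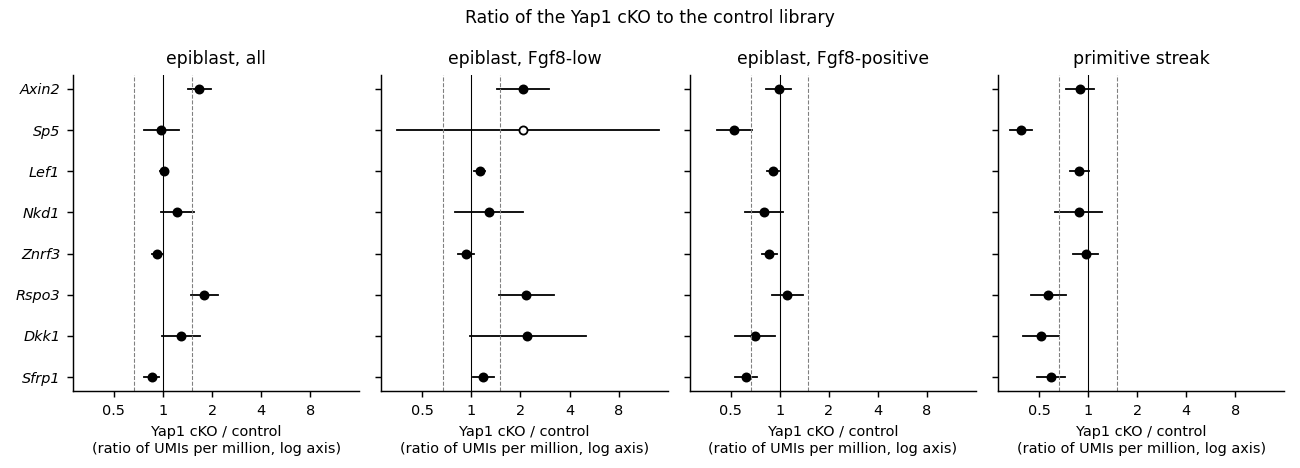
Ratio of the Yap1 cKO to the control level, on a log axis, for the 8 genes with at least 20 UMIs in epiblast; bars are exact 95% intervals, the solid line marks equal levels, the dashed lines 1.5-fold in either direction, and the open point under 20 UMIs. Axin2 and Rspo3 lie above 1.5 in all and in Fgf8-low epiblast and near 1 in Fgf8-positive epiblast, and Sp5 lies at 0.389 in the streak.

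Across cells grouped by their own Fgf8 level the genes went apart. Axin2 was higher with more Fgf8, from 3.63 CPM under 40 CPM of Fgf8 to 34.1 CPM at 150 to 500 CPM in the control, and from 7.52 to 30.5 CPM in the Yap1 cKO. In each of the 3 groups over 40 CPM of Fgf8 its intervals overlapped between the libraries. Sp5 at 150 to 500 CPM of Fgf8 stood at 20.9 CPM over 39 control cells and 12.4 CPM over 66 Yap1 cKO cells, a ratio of 0.593 (0.427 to 0.825), and at 500 CPM or more at 61.6 and 15.8 CPM. Dkk1 turned over: at 150 to 500 CPM of Fgf8 its ratio was 2.16 (1.17 to 4.30), and at 500 CPM or more 0.147 (0.0965 to 0.222). The last group held 10 control cells, and the values at 150 to 500 CPM are those without it. In the control, 4 Sox17-positive cells held 70.4% of the Dkk1 UMIs of all 276 epiblast cells, and 1 cell alone 44 of 98 UMIs. Without Sox17-positive cells the epiblast ratio of Dkk1 was 3.10 (2.04 to 4.85), from 29 and 108 UMIs, while those of Axin2 (1.67) and Rspo3 (1.80) kept their values.

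**Figure D3:**
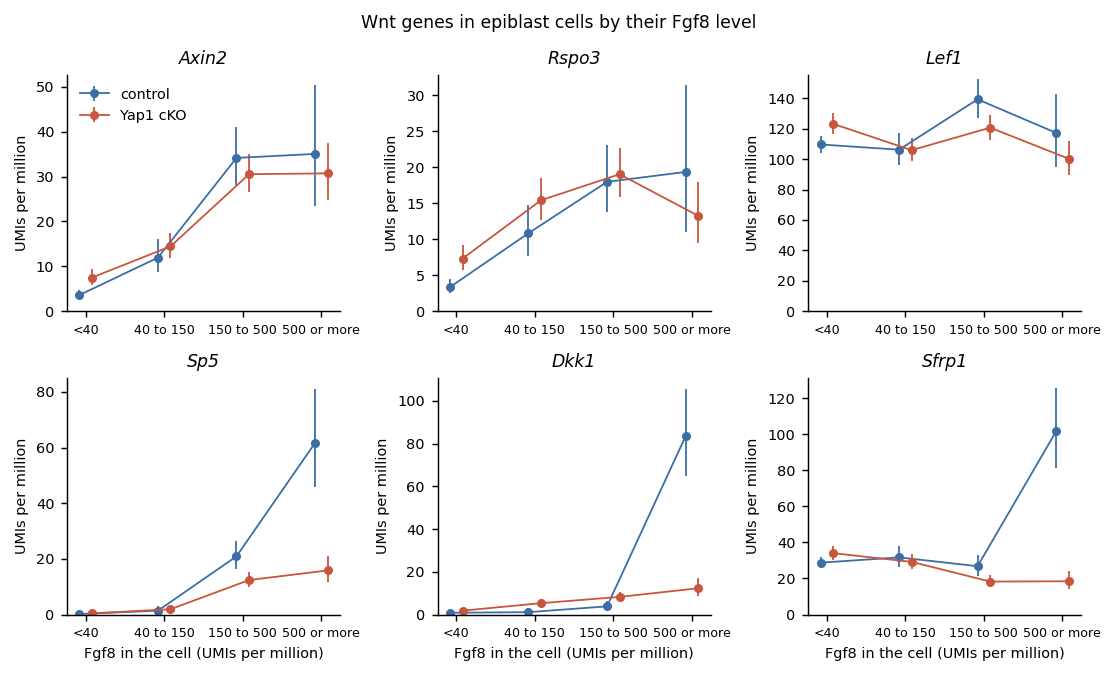
Level of 6 genes (CPM, from 0) in epiblast cells grouped by their Fgf8 level, for the control (blue) and the Yap1 cKO (red); bars are 95% Poisson intervals, and the groups hold 178, 49, 39 and 10 control and 101, 67, 66 and 33 Yap1 cKO cells. Axin2 climbs in both libraries up to 150 to 500 CPM of Fgf8, and Sp5, Dkk1 and Sfrp1 are highest in the last control group, at 61.6, 83.4 and 102 CPM.

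The same genes were counted per cell after each cell was thinned to 38000 UMIs. Among Fgf8-low epiblast cells the share with Axin2 was then 9.71% (5.76 to 15.1) for the control but 21.4% (13.8 to 30.9) for the mutant; the gene was seen in 48.5% and 47.8% of Fgf8-positive cells, and in 80% and 73.9% of streak cells. Without thinning, at medians of 72812.5 and 78631 UMIs, 20.8% and 37.6% of Fgf8-low cells held a UMI. Sp5 was seen in 1.14% and 2.04% of Fgf8-low cells, and in 0% and 3.23% of extraembryonic ectoderm cells, so its share in Fgf8-low cells was read as background. Rspo3 was seen in 11.4% (7.12 to 17.1) and 14.3% (8.04 to 22.8) of Fgf8-low cells. Among Fgf8-positive cells the shares were 26.8% (18.3 to 36.8) and 39.0% (31.4 to 47.0), against 0% and 1.08% of extraembryonic ectoderm. The Rspo3 intervals of the 2 libraries overlapped in both epiblast gates. Lef1 was seen in 95.2% and 97.7% of epiblast cells and in 1.15% and 1.08% of extraembryonic ectoderm.

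Sp5 was seen more often in epiblast cells with Axin2 than in those without. Of the control cells with a UMI of Axin2 at this depth, 26.6% also had one of Sp5, against 1.92% of the rest, and in the Yap1 cKO 21.6% against 3.12%. For Rspo3 the shares were 34.4% against 11.5% in the control and 50.5% against 16.9% in the Yap1 cKO. Sfrp1 went the other way in value, with 45.3% against 58.7% and 52.6% against 57.5%. The Fgf8 level of the cells was not held fixed in these shares.

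The pools differ in their share of Y-bearing cells, and the epiblast values differ between Y-bearing and Xist-bearing cells. Each pool held few embryos, so this split also parts embryos, and sex cannot be told apart from embryo or its stage. Among Y-bearing cells (141 control and 56 Yap1 cKO epiblast cells) Axin2 stood at 9.90 and 25.1 CPM, a ratio of 2.54 (1.99 to 3.24), and among Xist-bearing cells (124 and 200) at 11.9 and 15.3 CPM, a ratio of 1.28 (1.03 to 1.60). Rspo3 had a ratio of 2.78 (2.04 to 3.82) and of 1.37 (1.07 to 1.77), so both genes were higher in the Yap1 cKO in either group of cells. Sp5 took opposite directions: 2.85 and 8.87 CPM in Y-bearing cells, a ratio of 3.11 (2.01 to 4.91), and 9.32 and 4.56 CPM in Xist-bearing cells, a ratio of 0.489 (0.361 to 0.663). Dkk1 did so too, with 5.22 (3.0 to 9.56) and 0.607 (0.444 to 0.832). Of the control Sox17 UMIs in these epiblast cells 190 lay in Xist-bearing cells and 1 among the Y-bearing. Y-bearing cells were 53.9% and 12.9% of Fgf8-low and 45.9% and 25.9% of Fgf8-positive epiblast cells. The make-up by Fgf8 gate was not held fixed in the ratios of this split. In Fgf8-positive cells alone, Axin2 had ratios of 1.29 (0.98 to 1.70) and 0.821 (0.646 to 1.05), with counting intervals that both include 1.

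**Figure D4:**
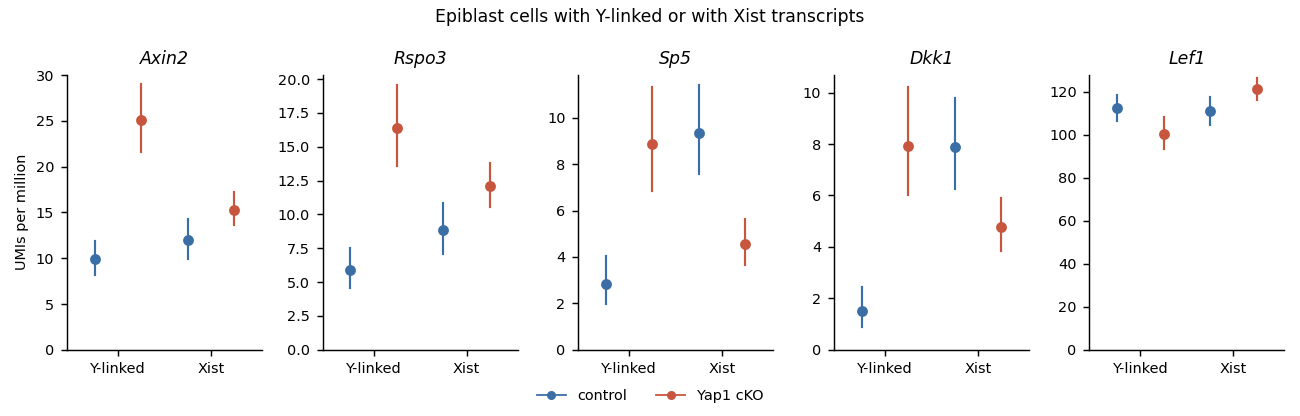
Level of 5 genes (CPM, from 0) in epiblast cells with Y-linked or with Xist transcripts, for the control (blue) and the Yap1 cKO (red) library, with 95% Poisson intervals. Axin2 and Rspo3 are higher in the Yap1 cKO on both sides, and Sp5 and Dkk1 are higher among Y-bearing and lower among Xist-bearing cells.

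In the primitive streak gate, 33 control and 46 Yap1 cKO cells, 4 of 8 genes were lower in the Yap1 cKO by 1.5-fold or more (8.28% of 10908 genes were) and 0 were higher (5.46%). This count depends on the gate: with its thresholds halved 1 gene was lower and 1 higher, and with them doubled 1 was lower and 0 higher. The share of all genes past the fold is not given for those thresholds. Sp5 stood at 159 CPM (144 to 175) in the control and 61.7 CPM (54.5 to 69.6) in the Yap1 cKO, a ratio of 0.389 (0.332 to 0.454). Rspo3 had a ratio of 0.569 (0.444 to 0.728), Dkk1 0.515 (0.398 to 0.664) and Sfrp1 0.594 (0.487 to 0.724). Axin2, at 0.892 (0.730 to 1.09), Lef1, at 0.885 (0.774 to 1.01), Nkd1 and Znrf3 stayed closer to 1. At 2-fold, Sp5 alone of the 8 was lower (2.57% of all genes). The median log2 ratio of the 8 genes was -0.47, and that of all genes -0.04.

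The same gate held unlike cells in the 2 libraries. Sox17-positive cells made up 9 of 33 control and 5 of 46 Yap1 cKO cells, and Lhx1, a factor of the anterior streak and its derivatives, stood at 519 and 101 CPM. The summed level of the 5 anterior VE markers, which the anterior mesendoderm shares, was 988 and 369 CPM with 0 of the 5 at 0. The 9 control cells held 91.9% of the Sfrp1, 75.4% of the Dkk1, 56.6% of the Sp5 and 25.4% of the Axin2 UMIs of the gate, and the 5 Yap1 cKO cells 65.7%, 56.5%, 21.7% and 2.87%. Without these cells Sp5 had a ratio of 0.492 (0.402 to 0.604), Rspo3 0.567 (0.425 to 0.756), Dkk1 0.637 (0.404 to 1.02) and Sfrp1 1.76 (1.02 to 3.19). The direction of Sfrp1 in the streak therefore turned with these cells, and those of Sp5 and Rspo3 did not. With gate thresholds halved or doubled the ratio of Dkk1 in the streak was 1.68 and 1.32, so its direction is not firm either, and that of Sfrp1 was 1.13 and 0.746. Sp5 stayed below 1, at 0.583 and 0.696, but the latter is not past 1.5-fold. Rspo3 stood at 0.831 with thresholds halved, not past 1.5-fold, and at 0.639 with them doubled. The embryonic gates other than blood and endothelial together held 15 control and 14 Yap1 cKO Sox17-positive cells. In these cells Sp5 stood at 206 and 245 CPM, Dkk1 at 120 and 328 CPM and Sfrp1 at 199 and 353 CPM.

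**Figure D5:**
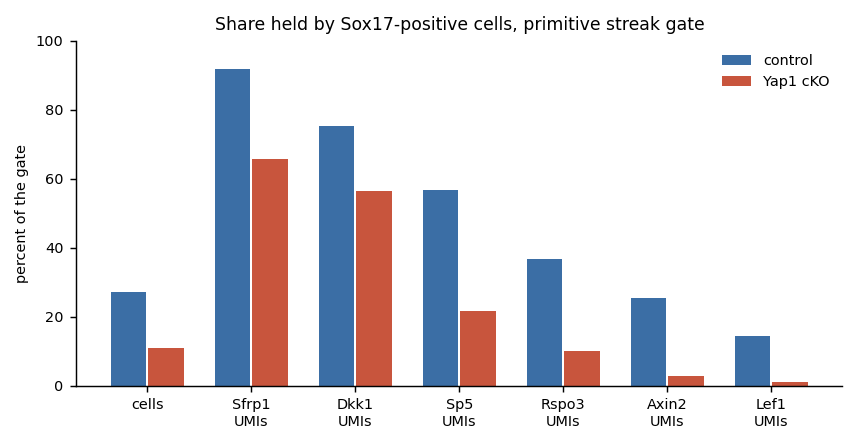
Percent of the cells, and of the UMIs of 6 genes, that Sox17-positive cells held in the primitive streak gate of the control (blue) and the Yap1 cKO (red) library, on an axis from 0 to 100. They are 27.3% and 10.9% of the cells and hold 91.9% and 65.7% of the Sfrp1 UMIs.

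In nascent mesoderm 0 of 8 genes were past 1.5-fold, where 6.05% of all genes were higher and 6.1% lower: Axin2 had a ratio of 0.962 (0.826 to 1.12), Sp5 0.872 (0.802 to 0.949), Lef1 0.965 (0.905 to 1.03), Rspo3 0.884 (0.796 to 0.981) and Dkk1 0.901 (0.776 to 1.05). In Foxf1/Hand1 mesoderm 0 of 9 genes were lower by 1.5-fold (6.35% of all genes were). The 4 feedback genes had ratios of 0.676 (0.546 to 0.835) for Axin2, 0.706 (0.619 to 0.805) for Nkd1, 0.765 (0.654 to 0.894) for Znrf3 and, from 15 and 11 UMIs, 0.816 (0.339 to 1.90) for Notum, and Lef1 had 1.01 (0.915 to 1.11). Sfrp1 was the 1 gene higher by 1.5-fold there (7.34% of all genes were), at 7.21 and 26.3 CPM (3.64, 2.45 to 5.56). Of its 108 Yap1 cKO UMIs 49 lay in 1 Sox17-positive cell, without which the ratio was 2.06 (1.32 to 3.25). In blood and endothelial cells Rspo3 had a ratio of 0.673 (0.615 to 0.737), and its median over cells was 33.5 and 22.5 UMIs. Dkk1 stood at 12.4 and 49.8 CPM there, a ratio of 4.0 (2.75 to 5.98), the 1 of 7 genes past 1.5-fold upward where 11.3% of all genes were. Sp5, at 17.6 and 11.2 CPM (48 and 36 UMIs), was the 1 past it downward where 5.45% were. In axial cells Dkk1, the 1 of 8 genes higher by 1.5-fold (5.27% of all genes; 0 lower against 11.6%), stood at 14.2 and 137 CPM, but 134 of the 227 Yap1 cKO UMIs came from 1 cell, and 5 of the 20 Yap1 cKO but 1 of the 21 control axial cells were Sox17-positive. Without the Sox17-positive axial cells the ratio of Dkk1 was 1.73 (0.973 to 3.14) and that of Sfrp1 0.607 (0.449 to 0.814). Over all embryonic gates the ratio of Axin2 was 1.06 (0.976 to 1.14), that of Sp5 0.884 (0.832 to 0.938) and that of Rspo3 0.850 (0.806 to 0.896).

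In the anterior VE Dkk1 had a ratio of 0.842 (0.791 to 0.897), Sfrp1 0.857 (0.770 to 0.954) and Sfrp5 0.824 (0.686 to 0.991), so the 3 antagonists differed by less than 1.5-fold. Sp5 alone was past it among 8 genes, at 47.1 and 77.7 CPM (1.65, 1.19 to 2.31), where 8.53% of all genes were higher and 7.76% lower, and no member was lower. Its UMIs lay in 10 of 19 control and 11 of 24 Yap1 cKO cells, with 16 of 51 and 36 of 147 in 1 cell. The median of Sp5 over cells was 1 and 0 UMIs, so its rise rests on few cells. Single cells weighed heavily: 268 of 1655 control and 497 of 2435 Yap1 cKO Dkk1 UMIs came from 1 cell each, and the median over cells was 25 and 57 UMIs. The anterior VE gate was also redrawn after values had been seen. With the first gate, cells with at least 2 anterior markers, the ratio of Dkk1 was 1.26 (1.17 to 1.35) in the anterior VE and 0.188 (0.163 to 0.216) in VE, whose control cells then held 582 Dkk1 UMIs in place of 83. No direction is read for Dkk1 there.

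The remaining VE held 67 control and 190 Yap1 cKO cells. Rspo3 stood at 23.4 CPM (19.4 to 27.9) in control VE and 9.06 CPM (7.63 to 10.7) in that of the Yap1 cKO, a ratio of 0.388 (0.302 to 0.499), and Sp5 at 20.7 and 8.87 CPM, a ratio of 0.429 (0.331 to 0.558). With Sfrp1, at 0.601 (0.448 to 0.812), 3 of 10 genes were lower by 1.5-fold or more where 5.22% of all genes were. Another 3 were higher, Lef1 at 1.83 (1.2 to 2.90), Notum at 2.46 (0.738 to 12.8) and Sfrp5 at 1.56 (0.887 to 2.94), where 5.99% were. Rspo3 was held by few VE cells, 15 of 67 and 33 of 190, and Sp5 by 13 and 20, with 43 of 107 control and 43 of 137 Yap1 cKO Sp5 UMIs in 1 cell. With the first gates, which kept the mixed cells, Rspo3 had a ratio of 0.664 (0.535 to 0.826), Sp5 0.498, Sfrp1 0.342 (0.269 to 0.436), Lef1 0.787 (0.610 to 1.02) and Sfrp5 0.640 (0.435 to 0.952) in VE, so the directions of Lef1 and Sfrp5 turned with the gates. In extraembryonic ectoderm, 181 and 98 cells, 1 of 5 genes was higher by 1.5-fold, where 3.78% of all genes were, and 0 were lower, where 5.66% were. The 1 was Nkd1, at 0.879 and 1.70 CPM, with a ratio of 1.93 (0.949 to 4.03) from 15 and 21 UMIs. Axin2 stood at 16.4 CPM (14.5 to 18.4) and 11.2 CPM (9.38 to 13.2), for a ratio of 0.680 (0.551 to 0.837), and 0.854 (0.705 to 1.03) with the first gates. With those gates Rspo3 had 3 control and 187 Yap1 cKO UMIs in extraembryonic ectoderm, against 3 and 7 without the mixed cells. Znrf3 had a ratio of 0.925 (0.834 to 1.02) in the same cells. Yap1 had there a ratio of 0.737 (0.625 to 0.868).

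Other genes of the pathway were taken from a list of 91 in 8 parts. T was left out of the counts, since the epiblast gate requires under 40 CPM of it and the streak gate 40 CPM of it or of Mixl1. Under that limit T had 25 and 69 UMIs in epiblast, a ratio of 2.32 (1.45 to 3.83). In epiblast 67 of the other 90 had at least 20 UMIs, and their median log2 ratio was -0.05. Of these, 11 were higher and 2 lower by 1.5-fold or more in the Yap1 cKO, against 3.94% and 6.38% of all genes. Among those past the fold, only the genes named below had a counting interval without 1. The ratios are of epiblast as a whole and were not weighted by Fgf8 gate, though the Fgf8-positive share was 35.5% and 62.2%. Among 8 ligands 3 were higher, led by Wnt3, which stood at 8.75 and 14.7 CPM (1.68, 1.41 to 2.0). Its rise in epiblast had been reported by the paper from these libraries, and the list was chosen with earlier results known. Porcn, the enzyme that attaches the lipid to Wnt ligands, had a ratio of 1.96 (1.39 to 2.81). Of 15 receptors 1 was higher and 1 lower: Fzd7, a Frizzled, stood at 36.6 and 22.7 CPM (0.620, 0.558 to 0.690). Lgr5, a receptor for R-spondins, had a ratio of 2.06 (1.2 to 3.66) from 20 and 49 UMIs. Of 9 other antagonists 1 was higher, and Cer1, which also binds Nodal and BMP, was lower at 0.492 (0.389 to 0.618). The 12 genes of the destruction complex lay between 0.801 and 1.16, and the 9 nuclear factors between 0.887 and 1.06. Of 8 further response genes 3 were higher and 0 lower: Sp8 at 1.86 (1.5 to 2.31), Msx1 at 2.5 (1.96 to 3.2) and Evx1 at 1.79 (1.25 to 2.59). In the streak gate Wnt3 had a ratio of 1.35 (1.06 to 1.71), Msx1 1.30 (0.935 to 1.84), Sp8 1.22 (0.788 to 1.91) and Evx1 0.959 (0.678 to 1.37).

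The genes most like 4 of the members were sought over 19 points, the populations of either library with at least 20 cells, among 12801 genes with at least 200 UMIs. The measure was Pearson's r of log2(CPM + 1), given as a description over points that share library, depth and embryos. Axin2 was most like Tnfrsf19 (r = 0.926), Mixl1 (0.818) and Wnt3 (0.784), of which Mixl1 defines the streak gate. Sp5 was most like Lhx1 (0.967), Lhx1os (0.940) and Frzb (0.918). Lhx1 is among the markers of the anterior VE gate. Dkk1 was most like Mettl24 (0.923), Anapc2 (0.894) and Cfc1 (0.894), and Sfrp5 like Txndc12 (0.928), Foxq1 (0.925) and Akr1c13 (0.925). For Sfrp5 the r rests on the Yap1 cKO anterior VE, since the control anterior VE had 19 cells and was not among the points.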

How the data were processed

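The authors made the deposited counts of unique molecular identifiers (UMIs) per gene and barcode from 10x 3′ libraries with Cell Ranger 7.1.0 on the mm10 mouse genome. The deposited counts were used as they stand, from 1829 control barcodes (70573418 UMIs) and 1897 Yap1 cKO barcodes (87937858 UMIs). Cells with at least 5000 genes and at most 10% mitochondrial UMIs were kept; the second limit removed 0. The members and all gene lists were chosen with earlier results of these data known. Visceral endoderm cells had 1000 CPM or more of 6 marker genes (Ttr, Apoa1, Apob, Amn, Rbp4, Cubn), anterior ones also 200 CPM of Cer1, Hhex, Lefty1, Gsc and Lhx1, and extraembryonic ectoderm 200 CPM of a list with Elf5, Rhox6, Rhox9, Esrrb, Tfap2c and 1 gene that is not reported here. The design set gate limits from the markers alone, but the removal of mixed cells and the anterior limit were set after member values had been seen. Other gates used 40 CPM of a gene, 25 CPM of Pou5f1 and 200 CPM of the blood list. Levels carry exact Poisson intervals, ratios exact conditional binomial intervals and shares Clopper-Pearson intervals, all at 95% and for counting error only. With 1 library per genotype no p-value was computed. A member was counted past the fold at 1.5-fold with at least 20 UMIs over both libraries. All 10 members were named, then the listed pathway genes with at least 50 UMIs, 1.5-fold and an interval without 1 in epiblast, and the 3 genes most like Axin2, Sp5, Dkk1 and Sfrp5. Scrublet (scanpy 1.11.5) called 1 control and 4 Yap1 cKO cells doublets, which were kept. The ratio intervals were tested on summed epiblast counts simulated as Poisson. That simulation leaves out the clustering of UMIs in single cells, so it does not show how the intervals hold under it. Python 3.11.15, numpy 2.4.6, scipy 1.17.1 and pandas 2.3.3 were used. Gene positions are from GENCODE on GRCm38. Promoters of Znrf3, Notum, Rspo3 and Sfrp1 were not analysed here.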

Additional observations from a re-analysis of the deposited data

Results flagged for a closer look

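For 2 genes, the counting intervals of the ratio in epiblast and in an extraembryonic population lay wholly on opposite sides of 1. Axin2 had a Yap1 cKO to control ratio of 0.680 (0.551 to 0.837; 280 and 138 UMIs) in extraembryonic ectoderm and of 1.67 in epiblast. Rspo3 had a ratio of 0.388 (0.302 to 0.499; 121 and 140 UMIs) in visceral endoderm and of 1.79 in epiblast. Neither difference was tested, since each genotype was 1 library. With the first gates, which kept mixed cells and took anterior cells by at least 2 markers, the extraembryonic ratios were 0.854 and 0.664.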

How the results depend on the processing

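No paired analysis was possible because each genotype was 1 library, so that replicate number 1 names a single sample on either side. The cause of each shift below was not tested, unless the setting itself takes cells away. All values are Yap1 cKO to control ratios. Counts of members past 1.5-fold are given below without the share of all genes under the same setting, so they are not read as results. Among Y-bearing cells alone the epiblast ratios were 2.54 for Axin2, 3.11 for Sp5, 0.895 for Lef1 and 2.30 for Nkd1. Those of Rspo3, Dkk1 and Sfrp1 were 2.78, 5.22 and 1.06, and 5 members were higher by 1.5-fold. The streak ratios of Y-bearing cells were 0.235 for Sp5, 0.747 for Rspo3, 0.331 for Dkk1 and 0.0782 for Sfrp1. These rest on few cells, since 39.4% of 33 control and 10.9% of 46 Yap1 cKO streak cells were Y-bearing. Among Xist-bearing cells alone the epiblast ratios were 1.28 for Axin2, 0.489 for Sp5, 1.09 for Lef1, 0.851 for Nkd1, 1.37 for Rspo3, 0.607 for Dkk1 and 0.707 for Sfrp1, with 0 members higher and 2 lower. With gate thresholds halved, Sp5 and Dkk1 had 1.46 and 0.850 in epiblast, Sp5, Rspo3, Dkk1 and Sfrp1 had 0.583, 0.831, 1.68 and 1.13 in the streak, and 1 member was higher and 1 lower there. With thresholds doubled, Dkk1 had 2.74 in epiblast, Sp5, Lef1, Dkk1 and Sfrp1 had 0.696, 1.21, 1.32 and 0.746 in the streak, and 1 member was lower there. With cells weighted equally, Sp5 and Lef1 had 1.31 and 1.08 in epiblast, Sp5, Dkk1 and Sfrp1 had 0.484, 0.669 and 1.07 in the streak, and 2 members were lower there. With cells thinned to 38000 UMIs, Sp5 and Lef1 had 1.27 and 1.11 in epiblast, and Sp5, Nkd1, Dkk1 and Sfrp1 had 0.559, 0.578, 0.772 and 0.960 in the streak. Without the top cell of each library Dkk1 had 2.01 in epiblast and 0.376 in the streak. At a fold of 2, 0 members were higher in epiblast and 1 was lower in the streak.

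The next settings were chosen after the data had been seen. Without Sox17-positive cells Dkk1 had 3.10 in epiblast. In the streak Sp5, Lef1, Znrf3, Sfrp1 and Sfrp5 (1 UMI in each library) then had 0.492, 0.719, 0.780, 1.76 and 0.4335. There 1 member was higher and 3 were lower by 1.5-fold. With the Fgf8 gates weighted as in the control, Axin2, Sp5, Nkd1, Rspo3, Dkk1 and Sfrp1 had 1.22, 0.562, 0.95, 1.43, 0.885 and 0.954 in epiblast. The first gates, with mixed cells kept and anterior cells taken by 2 markers, gave ratios beyond counting error of those reported for 11 of 25 extraembryonic values: Lef1, Rspo3, Dkk1, Sfrp1 and Sfrp5 had 0.787, 0.664, 0.188, 0.342 and 0.640 in visceral endoderm, Rspo3 and Dkk1 had 0.255 and 1.26 in its anterior cells, and Axin2, Nkd1, Rspo3 and Dkk1 had 0.854, 4.80, 80.1 and 8.78 in extraembryonic ectoderm. Without thinning, 14 of 20 shares of cells with a UMI moved beyond counting error. Subtracting free RNA, a minimum of 2000 or 6000 genes, a mitochondrial limit of 5%, median size factors, a visceral endoderm limit of 50 CPM, removal of scrublet calls and a minimum of 100 UMIs moved none of the values they were run on beyond counting error. A planned visceral endoderm limit of 200 CPM equals the setting used. Across all settings the ratio of Axin2 in epiblast ran from 1.22 to 2.54 and that of Rspo3 from 1.37 to 2.78.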

Other observations

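Extraembryonic cells with Pou5f1, Mesp1 or Foxf1 belonged to no population above, nor did cells with the markers of both VE and extraembryonic ectoderm. The values below pool both kinds, 12 control and 19 Yap1 cKO cells, and were not split by kind. Rspo3 stood at 13.3 and 118 CPM and Dkk1 at 4.09 and 80.5 CPM. Sfrp1 stood at 82.7 and 8.38 CPM and Lef1 at 88.9 and 80.1 CPM. These cells held a median of 76347.5 and 127445 UMIs, against 75715 and 80921.5 over all cells. Yap1 stood at 36.8 and 16.8 CPM in the pooled cells.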
